A study of Mus musculus with 18 samples.

Results

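The comparison asked which transcripts differ in the mouse substantia nigra when an adeno-associated virus (AAV) delivers SIRT3 in place of green fluorescent protein (GFP), that is, what the SIRT3 cargo changes beyond the vector. It takes in the 12 AAV libraries of an 18-library series, 6 from mice given AAV-SIRT3 and 6 from mice given AAV-GFP, and 19443 of the 55270 genes in the table, those with enough reads to test. Each library holds poly-A transcripts of nigral tissue dissected at 3 months of age, which the labels place 1 month after the virus. The AAV groups are labelled by their vector under genotype, and the 6 further libraries come from wild-type mice that the labels call intact. The labels name no strain, serotype, promoter, dose or injection site. They also give neither the cells transduced nor the species of the SIRT3 coding sequence, and neither cargo has a row of its own in the table. Intact libraries shared the fit and are quoted for reference, without a test of their own.

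SIRT3 is a NAD-dependent deacetylase of the mitochondrial matrix. It removes acetyl groups from respiratory chain subunits, enzymes of fuel oxidation and the superoxide dismutase SOD2, so its direct products are modified proteins and not transcripts. The substantia nigra holds the dopaminergic neurons that project to the striatum, beside GABAergic neurons of the pars reticulata, astrocytes, oligodendrocytes and microglia. Astrocytes and microglia respond to injury and to injected vectors with known programmes of transcripts, among them Gfap, Serpina3n and C3 in astrocytes and Gpnmb, Clec7a and Itgax in microglia. Interferons act through STAT and IRF factors on genes whose promoters often hold an interferon-stimulated response element.

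AAV libraries held 48590648 to 64728587 reads assigned to genes. Values below are these reads after the authors' scaling for depth, called normalised reads, and fold changes are differences of mean log2(value + 1). In a whole-tissue sample, fewer cells of a type and less RNA per cell cannot be told apart. Dopaminergic markers were high in every library, with the lowest Th value at 3673 normalised reads. Libraries differed in how their levels ran with transcript length. The rank correlation of each library's deviation with length went from -0.327 in AAV-GFP replicate 2 to 0.122 in AAV-GFP and from -0.320 in AAV-SIRT3 replicate 6 to -0.0141 in AAV-SIRT3.

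Sirt3 was examined first, as the gene delivered. The endogenous gene lies on chromosome 7 from 140863666 to 140882309 (minus strand, GRCm38) and overlaps Psmd13 and Ric8a on the other strand. Its level ran from 1684 to 1936 normalised reads in AAV-GFP (median 1756) and from 1801 to 2041 in AAV-SIRT3 (median 1953). The ranges overlapped, and the AAV-SIRT3 library was the higher one in 33 of 36 pairs. The log2 difference of 0.13 (SE 0.042) missed the threshold in the genome-wide fit (limma adjusted p = 0.183). Without AAV-GFP replicate 2, a fit that called 861 genes, Sirt3 passed it (0.15, adjusted p = 0.0390), as did Ric8a (adjusted p = 0.0402). Tested by itself in an exact two-sided permutation test, Sirt3 gave p = 0.0152 (the smallest possible being 0.00216). Its opposite-strand neighbours differed about as much, Ric8a by 0.13 (exact permutation p = 0.0173) and Psmd13 by 0.10 (exact permutation p = 0.147). Whether reads were counted by strand is not given in the sources used here. The delivered sequence is not given either, so whether its reads are counted under Sirt3 is not known and the level is no firm check of the labels.

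A small set of genes separated the vectors. Of the 19443 genes, 22 (0.113%) passed an adjusted p of 0.05 (limma, Benjamini-Hochberg), 7 higher in AAV-SIRT3 (0.036%) and 15 lower (0.0771%). Of these, 4 rose and 5 fell by more than 1.5-fold. The called genes that fell by the most belong to microglial and astrocyte reactions, and the genes that rose by the most include a pair of interferon-stimulated genes. At an unadjusted p under 0.05 there were 1580 higher genes (8.13%) and 1384 lower ones (7.12%). In 146 genes (0.751%) all AAV-SIRT3 libraries lay on one side of all AAV-GFP libraries, 72 above (0.37%) and 74 below (0.381%), and 14 of the called genes were among them. The number of calls moved widely with single libraries. It was 861 without AAV-GFP replicate 2, 38 without AAV-GFP replicate 6, and 9, 10, 12 and 10 without AAV-GFP replicates 1, 3, 4 and 5. Without AAV-SIRT3 replicate 5 it was 5. DESeq2 on the recovered reads called 304, of which 148 were higher (0.862% of the genes it gave an adjusted p) and 156 lower (0.909%). All of the 22 genes were also called by DESeq2, by edgeR and without AAV-GFP replicate 2. Of the 22, 8 stayed called with the AAV groups fitted alone, 13 with replicate numbers as a block and 5 without AAV-SIRT3 replicate 5.

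**Figure D1:**
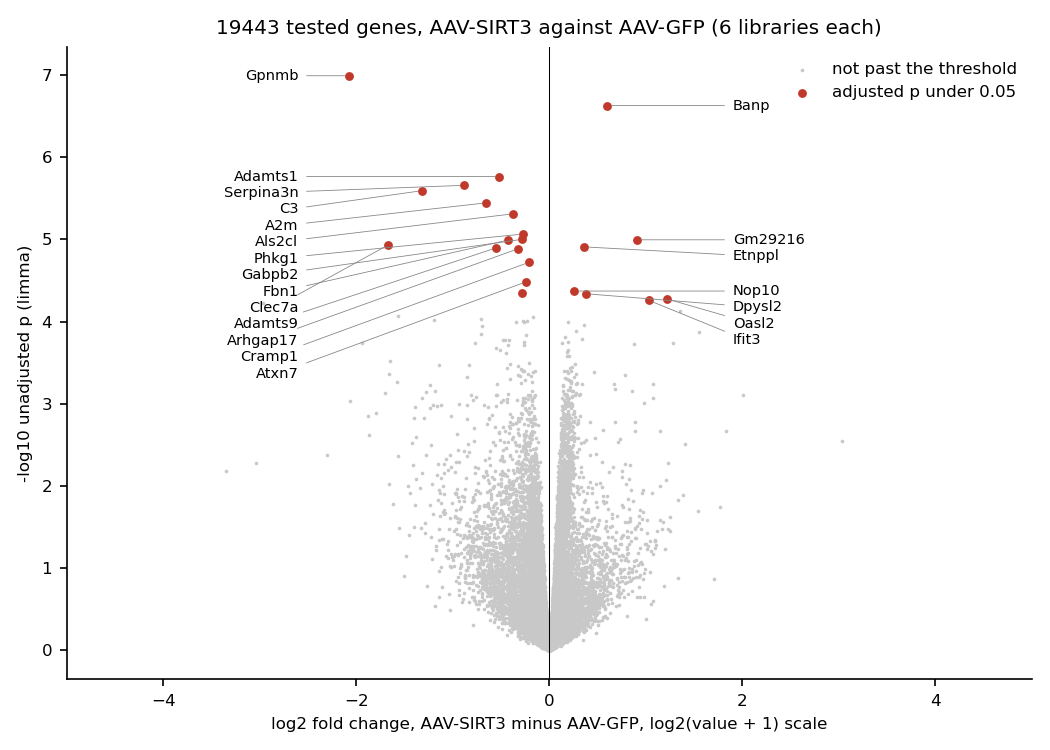
Log2 fold change of AAV-SIRT3 against AAV-GFP (horizontal axis) and -log10 of the unadjusted limma p (vertical axis) for the 19443 tested genes, 6 libraries a group. Red points are the 22 genes past an adjusted p of 0.05, 15 to the left and 7 to the right, with Gpnmb and Banp at the top.

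Among the called genes the largest fall was that of a microglial gene. Gpnmb, a transmembrane glycoprotein of phagocytic microglia with lysosomal load, lies on chromosome 6 from 49036546 to 49070929. It ran from 175.8 to 838.5 normalised reads in AAV-GFP (median 477.6), from 70.4 to 171.0 in AAV-SIRT3 (median 97.4) and from 91.3 to 151.9 in intact tissue (median 104.2). The AAV groups did not overlap, although the highest AAV-SIRT3 and the lowest AAV-GFP library nearly met, and the AAV-SIRT3 range took in the whole intact range. Gpnmb fell 4.54-fold by the ratio of means, a log2 change of -2.08 (SE 0.267, limma adjusted p = 0.00198). It was called in each of the 24 alternatives. Clec7a, the receptor Dectin-1 of activated microglia, fell by 1.67 (SE 0.296, limma adjusted p = 0.0168). Its range was 91.3 to 274.0 in AAV-GFP (median 177.6), 19.0 to 97.9 in AAV-SIRT3 (median 64.3) and 21.8 to 32.4 in intact tissue (median 28.2). AAV-SIRT3 replicate 6 alone reached into the AAV-GFP range. Clec7a was not called without AAV-GFP replicates 1, 3 or 5 or AAV-SIRT3 replicate 5, or with the AAV groups fitted alone (adjusted p = 0.0878).

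Across the disease-associated microglia list, 2 of 31 tested members (Gpnmb and Clec7a) fell and 0 rose. The median log2 fold change was -0.15, beside -0.0041 over all tested genes, and 24 of the 31 were lower. At an unadjusted p under 0.05 there were 12 lower and 1 higher, beside 7.12% and 8.13% of all tested genes. DESeq2 called 9 lower and 0 higher, beside 0.909% and 0.862% of the genes it gave an adjusted p. Itgax, an integrin of the same state, had medians of 105.4 in AAV-GFP and 30.8 in AAV-SIRT3 (-1.57, limma adjusted p = 0.105), and the lysosomal Cd68 had 602.2 and 420.4 (-0.55, adjusted p = 0.105). AAV-GFP replicate 6 stood at -0.394 on the list's mean log2 level relative to the AAV-GFP mean, and the other AAV-GFP libraries at -0.0556 or above. The AAV-SIRT3 libraries ran from -0.521 to -0.0165, with replicate 6 highest, and intact libraries from -0.885 to -0.611. In the homeostatic microglia list 1 of 16 passed as lower and 0 as higher, and the median was 0.03. DESeq2 called 2 of these 16 lower and 1 higher. Fcrls (-0.35, adjusted p = 0.0602), Cx3cr1 (-0.14) and Tmem119 (0.26) missed the threshold in different directions, and Aif1, a marker of microglia at large, differed by 0.02 (adjusted p = 0.941).

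Astrocyte and acute-phase genes formed the second set of falls. Serpina3n, a serine protease inhibitor that marks reactive astrocytes, lies on chromosome 12 from 104406729 to 104414329. It ran from 2092 to 4431 in AAV-GFP (median 3203), from 1431 to 2012 in AAV-SIRT3 (median 1630) and from 1392 to 2278 in intact tissue (median 1621). The AAV groups did not overlap, and the AAV-SIRT3 and intact ranges coincided for the most part. The change was -0.88 (SE 0.139, limma adjusted p = 0.00991). C3, the central complement component (chromosome 17 from 57203970 to 57228136), fell by 1.32 (SE 0.209, limma adjusted p = 0.00991). Its values were 291.7 to 906.0 in AAV-GFP (median 596.8), 166.6 to 310.6 in AAV-SIRT3 (median 232.0) and 184.9 to 286.7 in intact tissue (median 219.3). The ranges of the AAV groups touched through 1 library of each, replicate 6 in both. A2m, the protease inhibitor alpha-2-macroglobulin, fell by 0.65 (SE 0.106, limma adjusted p = 0.0116), from 1293 to 2282 (median 1576) in AAV-GFP to 941.8 to 1112 (median 1058) in AAV-SIRT3, without overlap. Its intact median was 1181. Serpina3n and C3 were called in all 24 alternatives, and A2m in all but the fit without AAV-SIRT3 replicate 5.

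**Figure D2:**
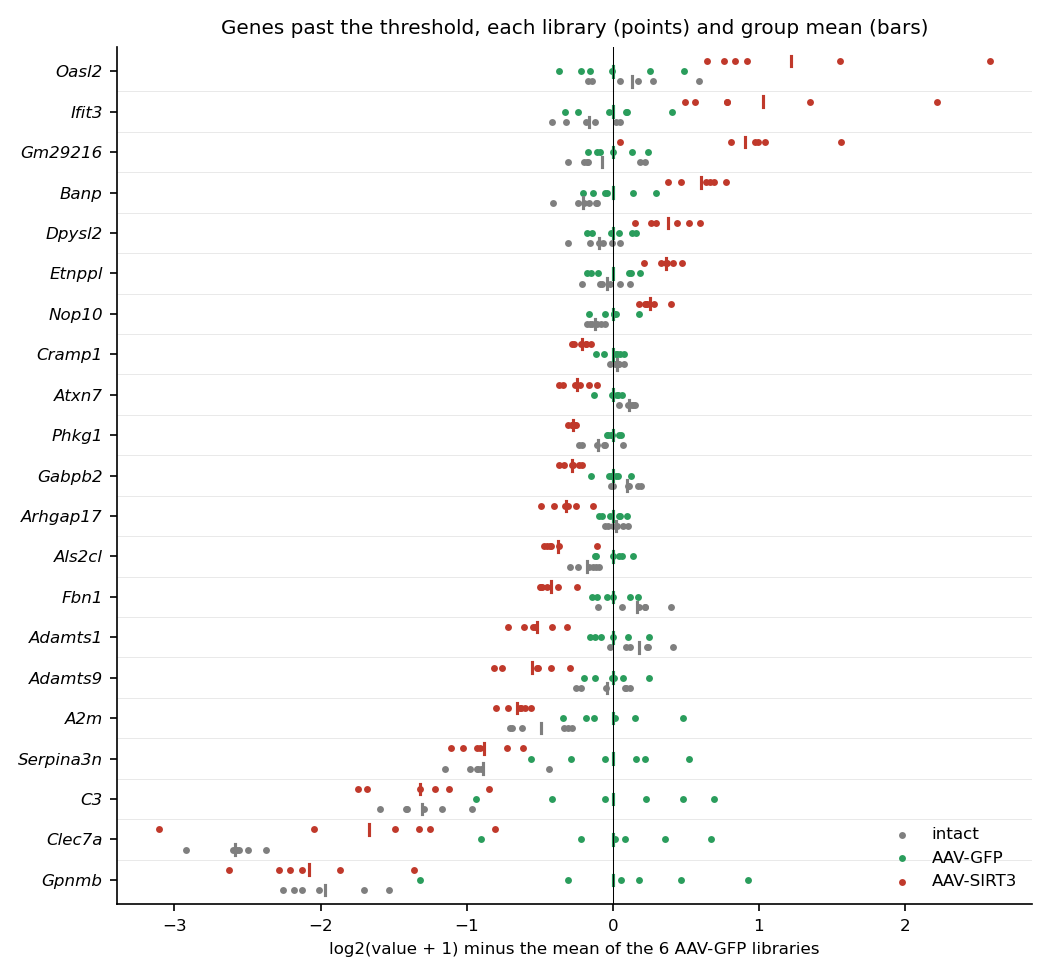
Of the 22 called genes, 21 by library, as log2(value + 1) minus the mean of the 6 AAV-GFP libraries (horizontal axis), with intact, AAV-GFP and AAV-SIRT3 libraries as points and group means as bars. For Gpnmb, C3, Serpina3n and A2m the AAV-SIRT3 points lie among or near the intact points, while for Adamts1, Fbn1, Banp, Etnppl and Ifit3 the intact points lie with AAV-GFP.

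Of the 30 tested members of the reactive astrocyte list, Serpina3n and A2m fell and 0 rose. The list's median was -0.40, with 26 members lower. At an unadjusted p under 0.05 there were 17 lower and 0 higher, beside 7.12% and 8.13% of all tested genes. DESeq2 called 11 lower and 0 higher, beside 0.909% and 0.862% of the genes it gave an adjusted p. On the list's mean log2 level relative to the AAV-GFP mean, AAV-GFP replicate 6 stood at -0.555. The other AAV-GFP libraries stood at -0.155 or above. AAV-SIRT3 libraries ran from -0.728 to -0.242 and intact libraries from -0.668 to -0.417, so AAV-GFP replicate 6 lay within both ranges. Gfap, the intermediate filament of astrocytes, ran from 19102 to 33696 in AAV-GFP (median 23668) and from 14750 to 20954 in AAV-SIRT3 (median 16988). The ranges overlapped, and its change of -0.55 (SE 0.123) missed the threshold (limma adjusted p = 0.0758), which it passed without AAV-GFP replicate 2 (0.0234) or 6 (0.0315). Steap4, a metalloreductase, stood at 32.4 to 47.7 in AAV-GFP and 2.98 to 25.7 in AAV-SIRT3 (-1.66, adjusted p = 0.0969). In the complement list of 17, C3 alone passed, and C4b (-0.49, adjusted p = 0.161) did not. Homeostatic astrocyte genes, such as transporters and connexins, had a median of 0.01 and 0 of 15 past the threshold, with the water channel Aqp4 lowest at -0.33 (adjusted p = 0.108).

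Adamts1, Adamts9 and Fbn1, which encode proteins of the extracellular matrix, fell from levels near or below those of intact tissue. Adamts1, a secreted metalloprotease (chromosome 16 from 85793827 to 85803113), ran from 880.0 to 1169 in AAV-GFP (median 955.4), from 596.7 to 791.0 in AAV-SIRT3 (median 675.2) and from 970.0 to 1304 in intact tissue (median 1109). All AAV-SIRT3 libraries lay below all of the other 12. The change was -0.52 (SE 0.0800, limma adjusted p = 0.00991), and it was called in all 24 alternatives. Its relative Adamts9 fell by 0.55 (limma adjusted p = 0.0168), with medians of 414.6, 289.6 and 419.4 in AAV-GFP, AAV-SIRT3 and intact libraries. Fbn1, the microfibril protein fibrillin-1, fell by 0.42 (limma adjusted p = 0.0168), with medians of 894.2, 654.8 and 1040. For both, the AAV groups did not overlap and all intact libraries lay above the AAV-SIRT3 range. Adamts9 lost the call in 4 and Fbn1 in 3 of the 12 fits that left out a library, and Adamts9 also with the AAV groups fitted alone. Vascular and mural markers were lower beside them. In the endothelial list 14 of 15 were lower with a median of -0.28, and 0 passed (Kdr -0.41, adjusted p = 0.105, and Ocln -0.28, adjusted p = 0.121). At an unadjusted p under 0.05 there were 11 lower and 0 higher, beside 7.12% and 8.13% of all tested genes. The summed level of that list was 18430 to 22755 in AAV-GFP and 15655 to 22076 in AAV-SIRT3. All 11 pericyte and fibroblast genes were lower, with a median of -0.27 (-0.15 without AAV-SIRT3 replicate 4, -0.16 without AAV-GFP replicate 5, -0.18 without AAV-GFP replicate 2) and 0 past the threshold. The part of vascular and mural cell content in the falls of Adamts1, Adamts9 and Fbn1 was not tested.

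The remaining falls were smaller than 1.5-fold. They were Als2cl (-0.38), Arhgap17 (-0.32), which encodes a GTPase-activating protein, Phkg1 (-0.28), the catalytic subunit of phosphorylase kinase, Gabpb2 (-0.28), a subunit of the GABP transcription factor, Atxn7 (-0.24), a subunit of the SAGA acetyltransferase complex, and Cramp1 (-0.21). Phkg1 had the narrowest groups, from 1184 to 1266 in AAV-GFP and from 983.7 to 1020 in AAV-SIRT3. These did not overlap, and intact libraries ran from 1037 to 1278. With a library left out Als2cl lost the call in 1, Phkg1 in 3, Gabpb2 in 4, Arhgap17 in 5, Cramp1 in 6 and Atxn7 in 8 of 12 fits, and all but Phkg1 also lost it with the AAV groups fitted alone. Phkg1 and Chchd2 overlap on the same strand, so the assignment of their reads is uncertain. Arhgap17, Als2cl, Atxn7 and Gabpb2 overlap genes on the opposite strand, as do Adamts9 and Fbn1 above.

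Among the rises, the interferon-stimulated genes Ifit3 and Oasl2 changed most. Ifit3 encodes a cofactor of the RNA-binding antiviral protein Ifit1, and Oasl2 a protein of the 2'-5' oligoadenylate synthetase family. Their RefSeq promoters (GRCm38.p6), the 250 bases before the start site, are shown with that of Isg15, an uncalled ubiquitin-like member of the list that held 3 matches. Capitals mark matches to the interferon-stimulated response element, searched as GAAA, any pair of bases, GAAA, on both strands.

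Ifit3, chr19:34583279-34583528, plus strand: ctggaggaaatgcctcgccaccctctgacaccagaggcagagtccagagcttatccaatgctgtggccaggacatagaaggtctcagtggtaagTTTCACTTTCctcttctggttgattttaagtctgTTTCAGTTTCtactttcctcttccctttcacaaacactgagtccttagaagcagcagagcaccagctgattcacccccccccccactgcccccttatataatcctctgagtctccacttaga

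Oasl2, chr5:114896684-114896933, plus strand: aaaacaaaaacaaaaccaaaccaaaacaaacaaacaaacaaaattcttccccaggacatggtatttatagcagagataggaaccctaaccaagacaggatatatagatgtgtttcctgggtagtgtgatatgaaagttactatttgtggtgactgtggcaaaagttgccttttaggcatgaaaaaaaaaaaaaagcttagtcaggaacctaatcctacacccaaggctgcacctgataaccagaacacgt

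Isg15, chr4:156200819-156201068, minus strand: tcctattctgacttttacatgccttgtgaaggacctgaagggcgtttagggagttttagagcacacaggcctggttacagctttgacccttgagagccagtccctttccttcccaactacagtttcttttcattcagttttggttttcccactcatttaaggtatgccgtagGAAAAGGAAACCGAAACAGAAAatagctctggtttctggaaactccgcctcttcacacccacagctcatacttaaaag

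Ifit3 held 2 matches, which began 156 and 122 bases before the start, Isg15 held 3 overlapping ones, and Oasl2 held none in this window. Of the 30 tested interferon-list genes with a promoter in the table, 12 (40%) held a match, beside 936 of 27025 genes (3.46%) in the whole table. A second pattern, TTCNNNGAA for STAT factors (both strands), was in 4 of these 30 (13.3%) and in 8.13% of all genes. Among the 16 called genes with a promoter the first pattern was in 2, Ifit3 and Fbn1, and the second in 0.

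Ifit3 ran from 436.1 to 724.3 normalised reads in AAV-GFP (median 560.1), from 772.9 to 2551 in AAV-SIRT3 (median 941.3) and from 410.6 to 567.3 in intact tissue (median 491.7). Oasl2 ran from 244.3 to 443.2 in AAV-GFP (median 298.6), from 493.5 to 1896 in AAV-SIRT3 (median 580.2) and from 280.1 to 474.0 in intact tissue (median 340.9). In both genes every AAV-SIRT3 library exceeded every AAV-GFP and intact library, and AAV-SIRT3 replicate 6 stood far above the rest, followed by replicate 4. Ifit3 rose by 1.03 (SE 0.206) and Oasl2 by 1.22 (SE 0.242), both with a limma adjusted p of 0.0487. Without AAV-SIRT3 replicate 6 the rises were 0.79 (adjusted p = 0.0179) and 0.94 (adjusted p = 0.0197), so they did not rest on that library. Both calls were lost in 8 of the 12 fits that left out a library (AAV-GFP replicates 1, 3, 4, 5 and 6 and AAV-SIRT3 replicates 3, 4 and 5), with the AAV groups fitted alone, without a filter on low values and with a stricter one (a mean of at least 50). Adjusted p-values in the 24 alternatives spanned 0.00316 to 0.136 for Ifit3 and 0.00288 to 0.132 for Oasl2. The Ifit3 transcript matches Ifit3b at 97.8% over 1700 bases, so their reads could have been exchanged. Ifit3b showed 271.5 to 355.9 in AAV-GFP and 406.2 to 1023 in AAV-SIRT3 (0.88, adjusted p = 0.0708).

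Of the 44 interferon-stimulated genes, these 2 passed, 42 were higher, and the median log2 fold change was 0.44. At an unadjusted p under 0.05 there were 24 higher and 1 lower, beside 8.13% and 7.12% of all tested genes. In 7 the AAV-SIRT3 libraries lay above all AAV-GFP libraries, beside 0.37% of all tested genes. DESeq2 called 15 higher and 0 lower, beside 0.862% and 0.909% of the genes it gave an adjusted p. The fit without AAV-GFP replicate 2, in which 2.36% of all genes were called higher and 2.07% lower, called 12 higher and 0 lower. Irf7, a transcription factor of the interferon response, had medians of 85.9 and 194.8 (1.35, adjusted p = 0.0602). Usp18, a protease that removes Isg15, had 71.8 and 121.6 without overlap (1.08, adjusted p = 0.108). In 41 of the 44 genes replicate 6 topped the AAV-SIRT3 group, and in the other 3 replicate 4 did. Without replicate 6 the list median was 0.28. The list's mean level per library, relative to the AAV-GFP mean, was -0.292 to 0.224 in AAV-GFP, -0.172 to 0.0996 in intact tissue and 0.126 to 1.40 in AAV-SIRT3, where replicates 5, 2 and 3 stood at 0.126, 0.197 and 0.318.

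**Figure D3:**
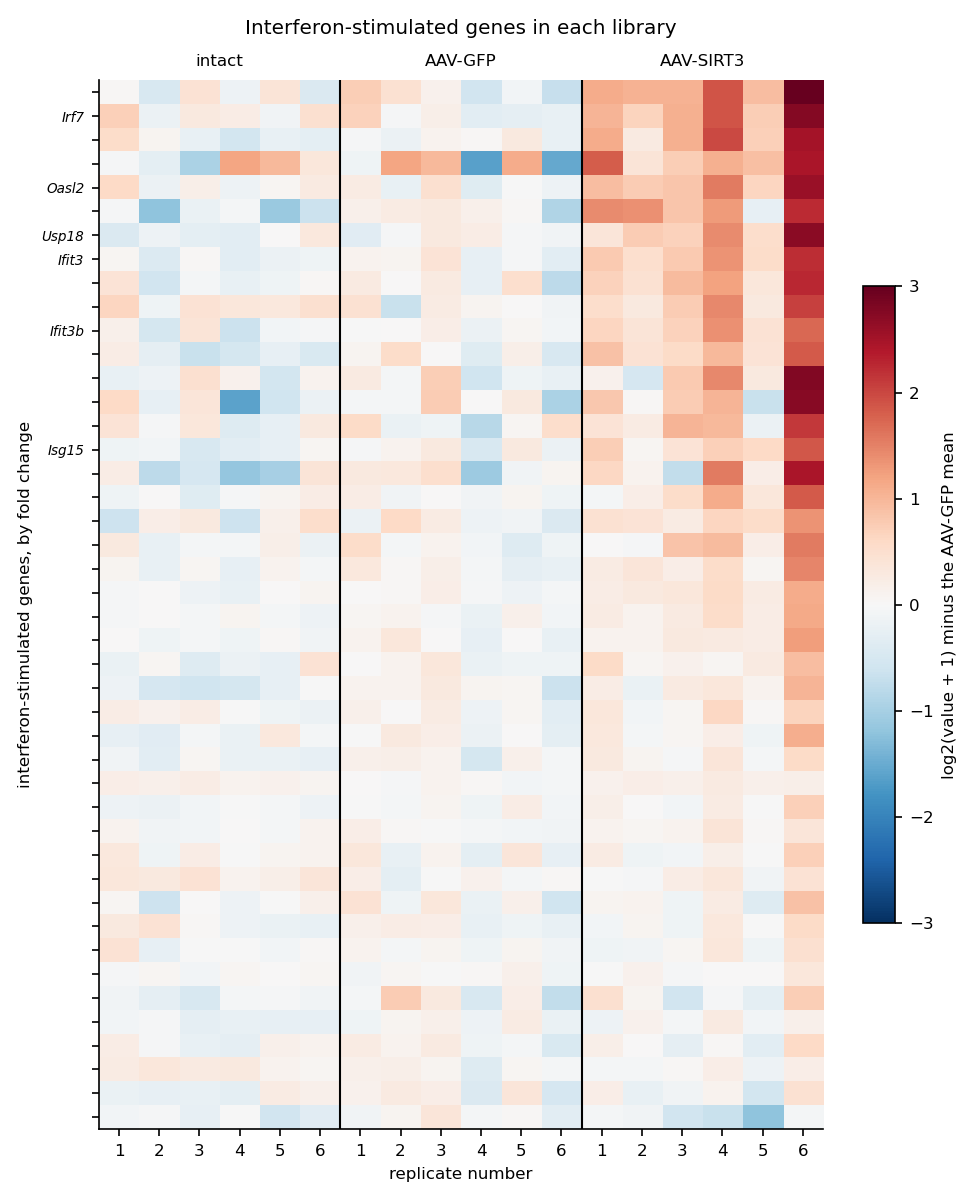
Level of the 44 interferon-stimulated genes (rows, ordered by fold change, with 6 of those in the text labelled) in the 18 libraries (columns), as log2(value + 1) minus the AAV-GFP mean, red above and blue below. AAV-SIRT3 replicate 6 is the reddest column, replicate 4 the next, and the upper rows are red in most AAV-SIRT3 libraries.

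Of 12 tested ligand, receptor and sensor genes upstream of this response 0 passed, and the median was -0.09, with the receptor chain Ifnar1 at -0.10 (adjusted p = 0.204) and the DNA sensor Cgas at -0.30 (adjusted p = 0.436). All 15 MHC class I and peptide-loading genes were higher, with a median of 0.28 and 0 past the threshold. AAV-SIRT3 replicate 6 stood at 1.10 on that list and the other AAV-SIRT3 libraries at 0.227 or below, and the median without it was 0.13. The 7 MHC class II genes had a median of -0.15, which ran from -0.41 without AAV-SIRT3 replicate 6, highest on this list at 0.720, to -0.06 without AAV-SIRT3 replicate 3, with 0 past the threshold. Among chemokines and cytokines 0 of 16 passed, and Cxcl10 (1.38, adjusted p = 0.216) and Ccl2 (-2.31, adjusted p = 0.160) lay at opposite ends. Markers of T cells were few, with 6 of 14 tested and 0 past the threshold.

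The other rises were Banp, Gm29216, Dpysl2, Etnppl and Nop10. Banp, a nuclear protein that binds unmethylated CGCG motifs in promoters, lies on chromosome 8 from 121949750 to 122029258. It ran from 751.0 to 1062 in AAV-GFP (median 837.0), from 1124 to 1480 in AAV-SIRT3 (median 1357) and from 650.0 to 804.3 in intact tissue (median 763.2). Every AAV-SIRT3 library lay above the other 12. Banp rose 1.51-fold, a log2 change of 0.60 (SE 0.0813, limma adjusted p = 0.00228), and was called in all 24 alternatives. It overlaps annotated genes on both strands, so part of its reads could belong to them. Etnppl, an astrocyte enzyme that degrades phosphoethanolamine, rose by 0.36 (SE 0.0642, limma adjusted p = 0.0168), from 4236 to 5445 in AAV-GFP to 5554 to 6648 in AAV-SIRT3, again without overlap. Dpysl2, the collapsin response mediator CRMP2 of growing axons, rose by 0.38 (SE 0.0743, limma adjusted p = 0.0444), from a median of 11378 to 14542. Of the 12 tested axon growth genes Dpysl2 alone passed, and Gap43 differed by 0.10 (adjusted p = 0.298). Nop10, a component of box H/ACA ribonucleoproteins, rose by 0.26 (limma adjusted p = 0.0444). Etnppl lost the call in 4 (without AAV-GFP replicates 1, 3 and 4 and AAV-SIRT3 replicate 5), Dpysl2 in 8 and Nop10 in 9 of the 12 fits that left out a library. With the AAV groups fitted alone none of these 3 was called, and Dpysl2 and Nop10 were not called under quantile normalisation or without a filter on low values either.

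Gm29216, on chromosome 1 from 24615706 to 24616197, is a pseudogene whose 492-base transcript matches the mitochondrial gene mt-Co1 at 99.8% over 483 bases. It ran from 1122 to 1493 in AAV-GFP and from 1311 to 3733 in AAV-SIRT3 (0.90, SE 0.158, limma adjusted p = 0.0168), a call lost in 3 of the 12 fits that left out a library and with the AAV groups fitted alone. mt-Co1 itself ran from about 1331330 to 1596520 in AAV-GFP and from about 1379720 to 1579510 in AAV-SIRT3, so a small part of misplaced reads could set the value of Gm29216, and its rise is uncertain as a change of that locus.

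Dopaminergic neuron genes were mostly higher in AAV-SIRT3 but none passed. Th, the rate-limiting enzyme of dopamine synthesis, ran from 3673 to 5429 in AAV-GFP (median 4686), from 5448 to 5938 in AAV-SIRT3 (median 5763) and from 4623 to 6637 in intact tissue (median 5679). The AAV groups did not overlap, by a narrow margin, and the intact range covered all of AAV-SIRT3. The difference was 0.30 (SE 0.0842, limma adjusted p = 0.122), and 0.34 without AAV-GFP replicate 2 (adjusted p = 0.0294). Slc6a3, the dopamine transporter, had medians of 8404 and 10656 with overlapping ranges (0.33, adjusted p = 0.143), and Slc10a4, a vesicular transporter-like protein, had 1362 and 1689 without overlap (0.36, adjusted p = 0.142). Of the 21 members 18 were higher, and the median was 0.20. At an unadjusted p under 0.05 there were 9 higher and 1 lower, beside 8.13% and 7.12% of all tested genes. DESeq2 called 3 higher and 0 lower, beside 0.862% and 0.909% of the genes it gave an adjusted p. The fit without AAV-GFP replicate 2 called 2 members higher and 1 lower, beside 2.36% and 2.07% of all genes. The 9 GABAergic genes were higher as well, with a median of 0.22, led by Pvalb (0.33, adjusted p = 0.0708). Pan-neuronal genes had a median of 0.05. Neighbouring thalamic neurons (-0.03) and hippocampal and cortical neurons (-0.03) had medians near 0, as did oligodendrocytes (0.03) and their precursors (0.01), each with 0 genes past the threshold.

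**Figure D4:**
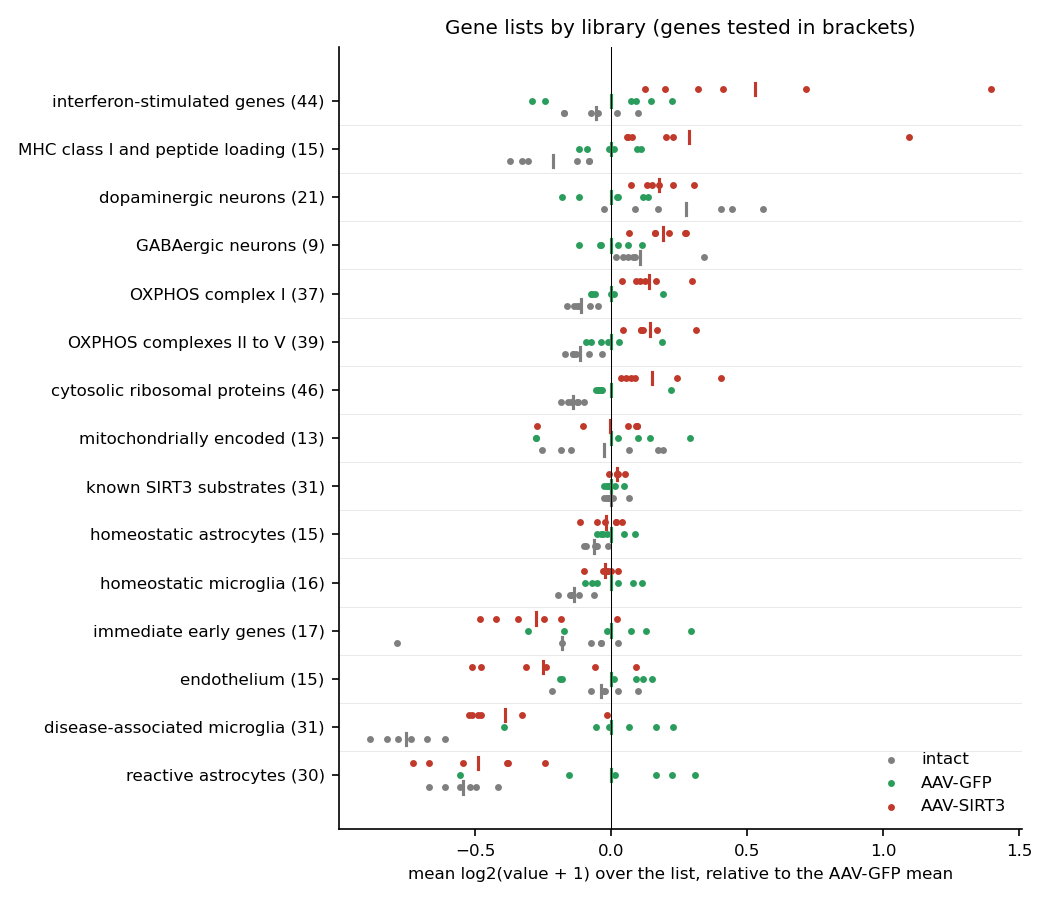
Mean log2(value + 1) of each gene list in each library, relative to the AAV-GFP mean (horizontal axis), with intact, AAV-GFP and AAV-SIRT3 libraries as points, group means as bars and the number of tested genes in brackets. Interferon-stimulated genes reach 1.40 in AAV-SIRT3, reactive astrocyte and disease-associated microglia lists lie lower in AAV-SIRT3 than in most AAV-GFP libraries, and SIRT3 substrates stay near 0.

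Nuclear-encoded genes of oxidative phosphorylation, the pathway in which SIRT3 acts, were slightly higher as a body, and 0 of them passed. Over all tested genes, 8.13% were higher and 7.12% lower at an unadjusted p under 0.05. In complex I 35 of 37 were higher and 31 reached an unadjusted p under 0.05 (median 0.14). In complexes II to V all 39 were higher and 26 reached it (median 0.15). Cox8a, a subunit of complex IV, ran from 10854 to 12347 in AAV-GFP and from 12299 to 14398 in AAV-SIRT3 (0.18, limma adjusted p = 0.0848). Ndufa9, a complex I subunit and reported SIRT3 substrate, was the one member without overlap, from 5089 to 5677 and from 5710 to 6180 (0.11, adjusted p = 0.216). Cytosolic ribosomal protein genes were higher by as much, all 46 of them, with 28 at an unadjusted p under 0.05 and a median of 0.15. These are short transcripts, with median lengths of 1046 bases in complex I, 1232 in complexes II to V and 1124 among ribosomal proteins, beside 3024 over the tested genes. AAV-GFP replicate 2, the AAV-GFP library with the strongest tilt to short transcripts, stood at 0.192 on the complex I list and at 0.220 on the ribosomal list, with the other AAV-GFP libraries at 0.0114 or below on the first and -0.0333 or below on the second. AAV-SIRT3 replicate 6, with the strongest such tilt in its group, was the highest library on both lists, at 0.299 and 0.404. Without AAV-GFP replicate 2, 18 complex I, 23 complexes II to V and 18 ribosomal genes were called higher. The rank correlation with length was then -0.00765 or above in every remaining AAV-GFP library and -0.0141 or below in every AAV-SIRT3 library. The part of length in the calls of that fit was not tested. That fit called 2.36% of all genes higher and 2.07% lower. After trends with length and GC content were removed, the complex I median was 0.14 and the ribosomal median 0.14, with the median of all genes at 0.03, and 3 and 5 members were called higher, in a fit that called 0.896% of its genes higher and 0.217% lower. Without AAV-SIRT3 replicate 6 the medians were 0.10 and 0.10.

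The other mitochondrial lists had medians nearer to 0. The 13 mitochondrially encoded genes had a median of 0.02, and mt-Nd1 differed by 0.07 (adjusted p = 0.622). The mitochondrial share of reads was 7.56% to 8.43% in AAV-GFP and 7.81% to 8.58% in AAV-SIRT3. Among 31 genes for reported SIRT3 substrates the median was 0.04 and 0 passed, with Cpt2, an enzyme of fatty acid import, at 0.16 (adjusted p = 0.222). Antioxidant enzymes had a median of 0.06. Of these, Srxn1, which repairs peroxiredoxins, ran from 6319 to 6798 in AAV-GFP and from 6995 to 7478 in AAV-SIRT3 without overlap (0.13, adjusted p = 0.121), and Gpx1 differed by 0.16 (adjusted p = 0.145). Biogenesis genes had a median of -0.0044, with Tfam at 0.11 (adjusted p = 0.260), and stress response genes 0.06, with Atf5 at 0.21 (adjusted p = 0.195). The 7 sirtuins had a median of -0.02, and 0 of these 3 lists' genes passed. Immediate early genes, which include reporters of recent neuronal activity, were all lower (17 of 17, median -0.22), with 0 past the threshold. At an unadjusted p under 0.05 there were 4 lower and 0 higher, beside 7.12% and 8.13% of all tested genes. The list's mean level, relative to the AAV-GFP mean, overlapped between groups. It was -0.306 to 0.293 in AAV-GFP, -0.481 to 0.0210 in AAV-SIRT3 and -0.788 to 0.0250 in intact tissue. Of these genes, Jun ran from 2020 to 2426 in AAV-GFP and from 1587 to 1982 in AAV-SIRT3 without overlap (-0.30, adjusted p = 0.0995).

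Dissection markers varied within groups. The summed choroid plexus level was 1305 to 2927 normalised reads in AAV-SIRT3 and 1375 to 45277 in AAV-GFP, where replicate 5 held the maximum, and its 10 genes had a median of -0.54 (-0.02 without that library) with 0 past the threshold. Haemoglobin and erythroid genes (median 1.02, 4 tested, 0.61 to 1.78 with a library left out) and pituitary genes (median 0.17, 6 tested, 0.06 to 0.41) had 0 past the threshold and ranges that overlapped. Their part in the results above was not tested.

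**Figure D5:**
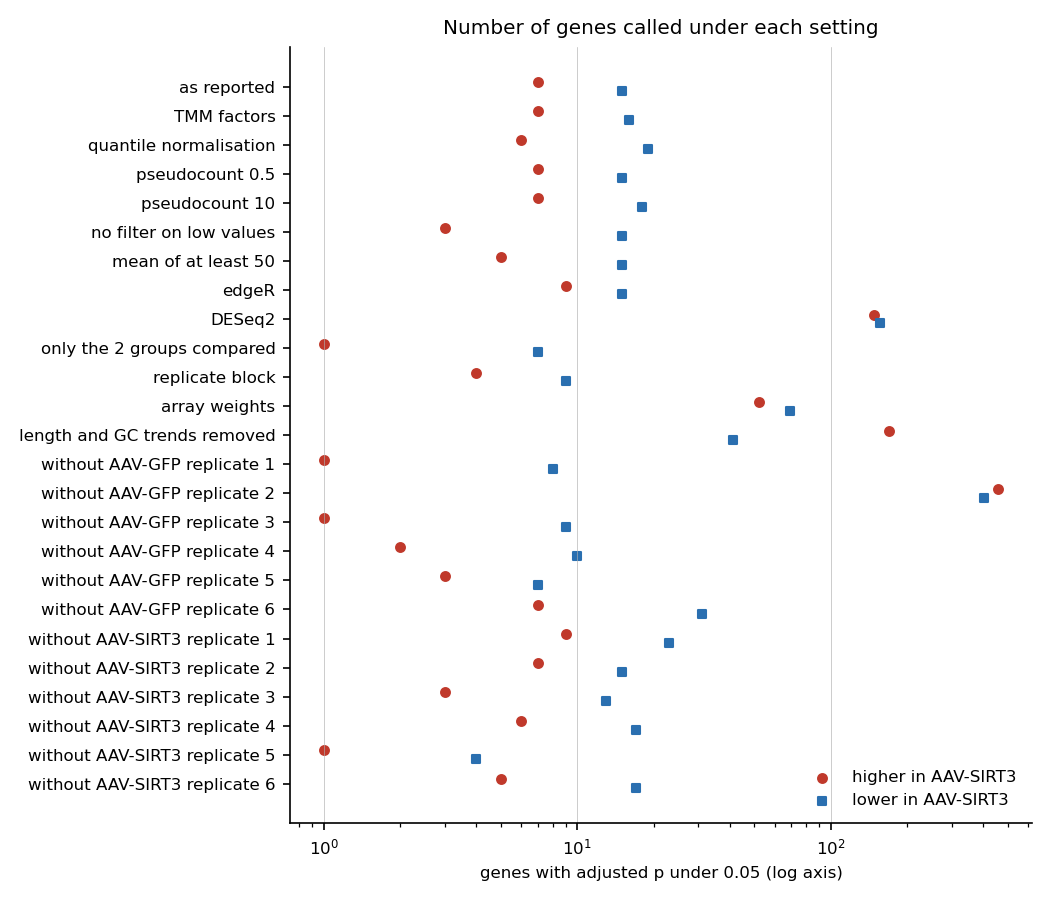
Number of genes with an adjusted p under 0.05 (horizontal log axis), higher (circles) and lower (squares) in AAV-SIRT3, for the reported fit and each of the 24 alternatives. The fit without AAV-GFP replicate 2 gave 458 higher and 403 lower, and the fit without AAV-SIRT3 replicate 5 gave 1 and 4.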

How the data were processed

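Poly-A RNA of the substantia nigra was sequenced in 18 libraries as stranded pairs of 100 bases, per the labels' protocols. Groups and replicate numbers came from the sample titles, and each table column matched a sample. Values were deposited as a gene-level signal, HTSeq read counts scaled by DESeq2, per the name of the deposited table. The submitters' processing notes name HISAT2 2.1.0, DESeq2 1.34.0 and the build mm10. The strand setting and the annotation are not given in the sources used here.

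Each deposited column of this signal is whole reads divided by a single factor. Multiplying back gave whole numbers for 100% of values (tolerance 1e-06, largest deviation 4.7e-09 reads). The steps show less where the factor is near 1, as in replicate 4 of the intact and AAV-SIRT3 groups. Counting error is the only error that depth covers, since the reads carry no molecular identifiers. Replicates within the AAV groups differed by more than sampling noise (chi-square per degree of freedom 8.27 to 30.9). Nothing in the labels names the animals, batches or days, so the p-values measure the spread between these samples.

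Tests used limma 3.58.1 in R 4.3.3 on log2(value + 1), a scale that understates changes of low genes. Tested genes reached 10 normalised reads in 6 or more libraries, with all 3 groups in 1 fit, a variance trend and Benjamini-Hochberg adjustment over all tested genes at 0.05. Sirt3 and its neighbours also had exact permutation tests. The scripts were tested on simulated data. Alternatives were TMM and quantile normalisation, pseudocounts of 0.5 and 10, other filters, count models of the recovered reads (edgeR 4.0.16, DESeq2 1.42.0), a fit of the AAV groups alone, a replicate block, array weights, removal of length and GC trends (added after seeing the data) and leaving out each AAV library.

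The genes compared and the 34 gene lists were chosen with earlier results of these data known, so a list's direction is not independent evidence. Named genes are all called genes, Sirt3, Psmd13, Ric8a, Th, Slc6a3, Gfap, Aif1 and, per list, members called, members with groups that do not overlap, or up to 4 with the smallest p. A few of these, 1 of them called, are not reported here. Serpinf2, Lilrb4a, Ch25h, Igkc, Jchain, Ighm, Isg15 and mt-Co1 were named after their values or sequences were seen. Positions come from GENCODE M21 (GRCm38), which had a length for 18855 tested genes, and promoters from RefSeq (GRCm38.p6).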

Additional observations from a re-analysis of the deposited data

Results flagged for a closer look

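In 126 groups of 6 values (called and fixed genes, and list means), 12 had a library far from the other 5, where chance gives about 1 in 20, or 6.3. Several were the same libraries. AAV-SIRT3 replicate 6 was highest for Oasl2 (1896 normalised reads, next 928.6), for Ifit3 (2551, next 1399) and on the MHC class I list (1.10 on the log2 scale relative to the AAV-GFP mean, next 0.227), and lowest for Slc6a3 (7743, next 10540). AAV-GFP replicate 2 was highest on the complex I list (0.192, next 0.0114), the cytosolic ribosomal list (0.220, next -0.0333) and the antioxidant list (0.104, next 0.00153).

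The others were spread over libraries. AAV-GFP replicate 5 was lowest for Slc6a3 (6087, next 8113) and highest on the choroid plexus list (2.79, next -0.274). AAV-SIRT3 replicate 2 was highest for Als2cl (1146, next 956.3). On the oligodendrocyte list AAV-GFP replicate 3 was highest (0.124, next 0.00251) and AAV-SIRT3 replicate 4 lowest (-0.123, next -0.000338).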

How the results depend on the processing

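The 22 calls (7 higher, 15 lower) became 304 with DESeq2 (148, 156), 121 with array weights (52, 69), 8 with the AAV groups fitted alone (1, 7) and 210 after removal of length and GC trends (169, 41). That removal turned the higher share of calls from 31.8% to 80.5% and shifted the median gene to 0.03. The count was 18 (3, 15) without a filter on low values. Over the 12 fits that left out an AAV library it ran from 5 to 861, with 1 to 458 higher and 4 to 403 lower. Genes whose groups do not overlap numbered 146, 358 after the trend removal and 189 to 741 with a library left out, where fewer libraries allow more by construction. Of the 22 genes, 9, 10, 11 and 10 remained called without AAV-GFP replicates 1, 3, 4 and 5, and 5 without AAV-SIRT3 replicate 5. The cause of these shifts was not tested. The log2 difference of Sirt3 stayed between 0.111 and 0.167, on the same side of an exact permutation p of 0.05.

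The fit with replicate numbers as a block called 13 genes (4, 9), all among the 22. Those left out of it include Ifit3, Oasl2, Nop10, Clec7a, Adamts9 and Fbn1. Deviations of same-numbered AAV libraries correlated at -0.0890 to 0.0782, and 0 of the 6 AAV-SIRT3 libraries correlated best with its own number. These correlations showed no pairing by number. The labels do not say whether same-numbered libraries shared a batch or day.

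Among the named genes, signs reversed or values reached 0 in the following. With length and GC trends removed Prox1 was 0.0038 and Vcan 0.0092. Hba-a1 was -0.092 in edgeR and -0.069 in DESeq2, and Hbb-bs -0.048 and -0.031. In the limma fits with a library left out, Hba-a1 ran from 0.656 to 1.72 and Hbb-bs from 0.634 to 1.84. Under quantile normalisation Alas2 was 0.00859, mt-Nd4 -0.032, and mt-Nd1 and mt-Co1 0. With a library left out Aif1 ran from -0.053 to 0.083, H2-Ab1 from -0.435 to 0.0236, Alas2 from -0.252 to 0.201 and mt-Co2 from -0.0029 to 0.320. Whether depth limited the calls was not tested, and genes that reached 10 normalised reads in fewer than 6 libraries were left out.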

Other observations

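Several genes that missed the threshold were singled out after their values were seen. Serpinf2, the plasmin inhibitor alpha-2-antiplasmin, ran from 18.7 to 46.5 normalised reads in AAV-GFP, from 0 to 16.5 in AAV-SIRT3 and from 1.83 to 15.4 in intact tissue, so that the AAV groups did not overlap (-2.97, limma adjusted p = 0.0506). Lilrb4a, an inhibitory receptor of myeloid cells, had medians of 59.8 in AAV-GFP, 17.3 in AAV-SIRT3 and 21.5 in intact tissue (-1.57, limma adjusted p = 0.0602). Ch25h, the cholesterol 25-hydroxylase of activated microglia and macrophages, had medians of 34.0, 7.93 and 9.53 in the same order (-1.94, limma adjusted p = 0.0708). In each of these 3 genes the AAV-SIRT3 and intact ranges overlapped.

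Immunoglobulin transcripts, which mark B lineage cells, were uneven. Igkc, the kappa light chain constant region, ran from 18.7 to 37.4 in AAV-GFP and from 37.6 to 5349 in AAV-SIRT3, without overlap but with a spread that left it short of the threshold (3.03, limma adjusted p = 0.142). The highest value was in AAV-SIRT3 replicate 6 and the next, 864.8, in replicate 1. Jchain, the joining chain of secreted immunoglobulin, was highest in the same library at 489.5, and ran from 28.5 to 56.1 in AAV-GFP (1.03, adjusted p = 0.334). Ighm did not follow, at 654.7 to 1431 in AAV-SIRT3 and 526.4 to 947.6 in AAV-GFP (0.22, adjusted p = 0.633). An intact library reached 368.5 for Igkc. AAV-SIRT3 replicate 6 is also the library with the highest interferon-stimulated level of the series.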
